A study of Mus musculus with 40 samples.

Results

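The Cyp4a genes encode cytochrome P450 enzymes that hydroxylate the terminal (omega) carbon of fatty acids. The family members measured here, Cyp4a10, Cyp4a14, Cyp4a31, Cyp4a32, Cyp4a12a and Cyp4a12b, were followed across dose in each sex. They were chosen by symbol alone, from the deposited table of probes, and they account for 6 of the 21448 gene symbols and for 10 of the 30146 probes of the assay. The livers came from wild-type Crl:CD1(ICR) mice, an outbred stock, of both sexes. Each mouse received ammonium perfluoro-ether carboxylate, known as GenX, in deionized water by oral gavage on 90 days. The daily doses were 0.1 (low), 0.5 (middle) and 5 mg per kg of body weight (high), and control mice received deionized water. There were 5 mice in each of 8 groups, housed singly, and their age is not given in the sources used here. RNA was read with TempO-Seq, in which a pair of short oligomers joins on its target RNA and is then counted, from a section of fixed and embedded liver taken from a single block of each mouse.

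Omega-hydroxylation is the opening step of a minor route of fatty acid breakdown. The omega-alcohol is oxidized to an aldehyde and then to a dicarboxylic acid, which is activated with coenzyme A and shortened in the peroxisome. In rodent liver, several Cyp4a genes are classical targets of the nuclear receptor PPARα, which binds DNA together with a retinoid X receptor and is activated by fatty acids and by many fluorinated acids. Cyp4a12a and Cyp4a12b are known as male-biased genes in mice, under the control of androgen and of the male pattern of growth hormone.

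All 6 genes lie on chromosome 4 of GRCm38 (mm10), within a single cluster. Cyp4a12a occupies chr4:115299046-115332815 and Cyp4a12b chr4:115411624-115439034, both on the plus strand. Cyp4a14 lies at chr4:115486200-115496142 on the minus strand. Cyp4a10 (chr4:115518264-115533649), Cyp4a31 (chr4:115563649-115579015) and Cyp4a32 (chr4:115600969-115621602) follow on the plus strand. All are protein-coding genes in the GENCODE annotation. The exon that each probe targets is not given in the sources used here.

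The members resemble each other closely, which limits how far a probe can be tied to a single gene. The coding stretch around the heme-binding cysteine, the hallmark of a P450 enzyme, shows the 3 types in the family. It is shown because the letters are nearly the same in members whose counts behaved very differently. Capitals mark bases that differ from Cyp4a10.
Cyp4a10 (also Cyp4a31 and Cyp4a32): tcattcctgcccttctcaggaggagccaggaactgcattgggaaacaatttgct
Cyp4a14: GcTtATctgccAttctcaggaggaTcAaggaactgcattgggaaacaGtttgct
Cyp4a12a (also Cyp4a12b): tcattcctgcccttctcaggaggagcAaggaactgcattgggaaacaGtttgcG
Cyp4a14 differed from Cyp4a10 at 8 of these 54 bases, and the Cyp4a12 pair at 3.

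Over the whole coding sequence, Cyp4a10 was identical to Cyp4a31 at 96.6% of aligned bases and to Cyp4a32 at 97.19%, and Cyp4a12a was identical to Cyp4a12b at 98.49%. Cyp4a14 reached 76.77% with Cyp4a10. The stretches of 50 coding bases in which the near-copies differ most are shown next, since a probe can separate the members only where they differ. Most differing positions lie outside these stretches, as counted below. Capitals mark the positions at which the members of a set differ.
Cyp4a10: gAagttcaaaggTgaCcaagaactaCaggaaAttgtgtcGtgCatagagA
Cyp4a31: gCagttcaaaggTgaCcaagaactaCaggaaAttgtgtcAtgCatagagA
Cyp4a32: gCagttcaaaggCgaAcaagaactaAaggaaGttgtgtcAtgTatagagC
Cyp4a12a: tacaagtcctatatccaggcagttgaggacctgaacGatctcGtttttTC
Cyp4a12b: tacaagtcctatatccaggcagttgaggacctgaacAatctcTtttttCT
In the first set, 8 of the 77 differing positions of the coding sequence fall in this stretch, and in the second set 4 of 23. Windows of 50 bases were also compared over the whole transcript of each gene, with its noncoding ends. Of these, 30.49% in Cyp4a10, 20.1% in Cyp4a31, 46.79% in Cyp4a32, 48.88% in Cyp4a12a and 49.45% in Cyp4a12b occur unchanged in another member. The Cyp4a32 transcript (1530 bases) held coding bases only, so these shares are not alike between members. No window of Cyp4a14 occurs in another member. Values of Cyp4a10, Cyp4a31 and Cyp4a32, and likewise of Cyp4a12a and Cyp4a12b, may therefore hold signal from a near-copy, and this was not tested, because the probe sequences were not used here.

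Of the 40 libraries, 39 were used, with 10341341 to 15562253 reads each. Counts within a library gathered at multiples of 20.77 to 49.84 reads. If each multiple is taken as the reads of 1 captured molecule, which no source used here states, the libraries held 287244 to 656743 molecules, and low counts are less precise than their reads alone would give. Every value in molecules below rests on this assumption. The median of this estimate was higher in males at 5 mg/kg (591295) than in male controls (329947), and lower in females at 5 mg/kg (320470) than in female controls (418492). The part of this difference in the results was not tested, other than by repeating the tests on molecules. Hepatocyte markers were present in every liver: the summed level of Alb, Apoa1, Ttr, Serpina1a, Tat and Hnf4a was 14990 to 39590 CPM (read counts scaled to a common library total). The Y-linked genes Ddx3y, Eif2s3y, Kdm5d and Uty summed to 31.6 CPM or more in every male and to 0 in every female. All 4 adipocyte markers summed to at most 3.12 CPM and the 4 kidney tubule markers to at most 4.15 CPM, with Slc34a1 and Lrp2 at 0 in every library. These markers were listed because kidney is another site of Cyp4a12a.

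The library left out was that of mouse 355, a female at 0.5 mg/kg, which held 6711981 reads, under the limit of 2 SD below the mean total. It went against its label on both Cyp4a10 probes, on Cyp4a14 and on the Cyp4a31 probe Cyp4a31_71013. In CPM of its own total, without further scaling, it held 23.8 and 12.96 on the 2 Cyp4a10 probes, where the lowest female control held 79.3 and 46.2 and the other females at its dose held at least 476 and 185. It held no read on Cyp4a14, Cyp4a31, Cyp4a12a or Cyp4a12b, and its 9.83 CPM on Cyp4a32 lay within the range of the others (2.38 to 23.4). With an estimated 92099 molecules, a count of 0 allows up to 32.6 CPM. The other females at its dose held at least 176 CPM on Cyp4a14 and 111 CPM on Cyp4a31_71013. They held 6.52 to 86.1 CPM on Cyp4a12a_79220 and 0 to 24.4 CPM on Cyp4a12b, ranges from which a count of 0 is not set apart. The liver protein gene Alb was also low in it, at 310 CPM against 4133 to 5690 in the other females at its dose. Ehhadh was low as well (12.5 against 604 to 1095), whereas Apoa1 was within their range (17650 against 11960 to 24550). Each change that passed in females at 0.5 mg/kg is therefore given with and without this mouse.

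The plot of the share of reads shows the size of the response as a whole. In male controls, 0.0366% ± 0.0074 (SD, n = 5) of all reads fell on the 10 Cyp4a probes. This share was 0.0533% ± 0.0132 at the low, 0.288% ± 0.044 at the middle and 0.670% ± 0.091 at the high dose (n = 5 each). In females it was 0.0303% ± 0.0147 in controls, 0.0350% ± 0.0132 at the low, 0.139% ± 0.038 at the middle (n = 4) and 0.628% ± 0.037 at the high dose (n = 5 otherwise). The groups at 0.5 and 5 mg/kg did not overlap with the controls of their sex, and the ranges of the sexes overlapped at 5 mg/kg but not at 0.5 mg/kg. No test was run on this sum.

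**Figure D1:**
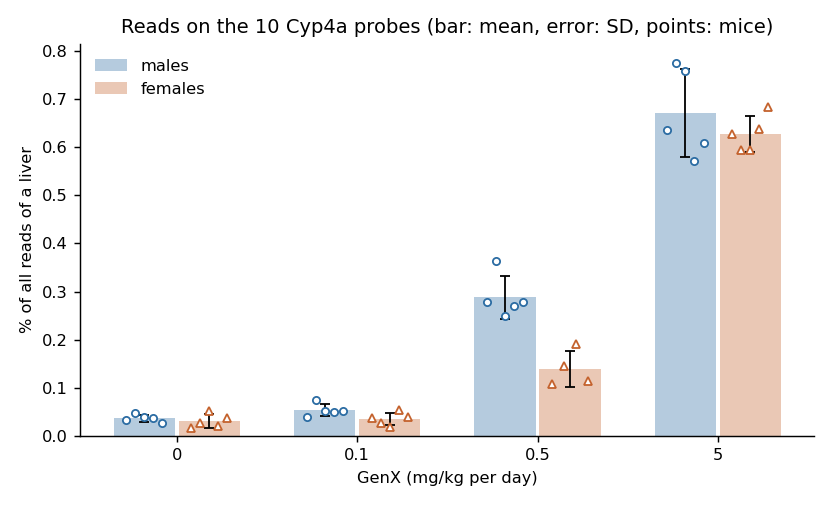
Share of each liver's reads on the 10 Cyp4a probes (y axis, percent) by GenX dose (x axis, mg/kg per day) in males (blue, circles) and females (orange, triangles). Bars are means, error bars SD and points single mice. The share rose from 0.0366% to 0.670% in males and from 0.0303% to 0.628% in females, and at 0.5 mg/kg the males lay above the females.

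Each dose was compared with the controls of the same sex by edgeR's quasi-likelihood test over 17877 probes, all 10 member probes among them, with Benjamini-Hochberg adjustment and a threshold of 0.10. In males, 1, 6 and 7 of the 10 member probes rose at 0.1, 0.5 and 5 mg/kg, and none fell. The share of all probes that rose was 0.0336%, 1.74% and 4.83%. In females, 0, 6 and 9 member probes rose and none fell, where 0%, 0.185% and 1.83% of all probes rose. Over the members, the median log2 fold change at 5 mg/kg was 5.15 in males and 4.78 in females, while the median over all probes was 0.10 and -0.01. The member medians pool fitted values of probes whose controls held 2 reads or none, and such values are no measure of size. For males these are Cyp4a31_73149 (11.34) and Cyp4a31_29350 (10.64). For females they are Cyp4a12a_79220 (11.83), Cyp4a12b_71633 (11.35), Cyp4a31_29350 (9.13) and Cyp4a12a_29072 (7.48). A gene with several probes entered with each of them. The member medians are therefore no measure of the size of the response. In high-dose males, 863 probes of the assay rose and 617 fell. On counts of molecules the median over all probes there was -0.01, and 892 of 1874 called probes (47.6%) rose. Only 7 of the 10 member probes, those with more counts, could be tested on molecules, and 6 of them rose in high-dose males. At 0.1 mg/kg in females no probe of the whole assay passed edgeR's adjusted threshold, although 1843 had an unadjusted p below 0.05. DESeq2 called 166 probes, no member among them. With mouse 355 included, the test called 2 member probes in females at 0.5 mg/kg in place of 6, Cyp4a12a_79220 and Cyp4a12b_71633.

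Cyp4a10, an omega-hydroxylase of medium-chain and long-chain fatty acids, had 2 probes. On probe Cyp4a10_66565, the male controls held 12.5, 17.7, 31.7, 35.9 and 86.7 CPM. Males held 55.2, 59.9, 68.4, 113 and 232 CPM at the low dose, then 942, 950, 1064, 1203 and 1466 CPM at the middle dose and 1963, 2139, 2167, 2684 and 2778 CPM at the high dose. The lowest male at 0.5 mg/kg lay far above the highest at 0.1 mg/kg, whereas 0.1 mg/kg overlapped with the controls. The mean was 30.5 times that of the controls at the middle dose and 63.6 times at the high dose. The corresponding log2 fold changes were 4.93 ± 0.40 (SE, adjusted p = 5.74e-13) and 5.99 ± 0.42 (adjusted p = 1.04e-15). At 0.1 mg/kg the log2 difference was 1.52 ± 0.35 and did not pass edgeR's test (adjusted p = 0.171). It passed when mouse 102, 201, 203 or 205 was left out, with values of 1.64 to 2.11, and under DESeq2 (1.49, adjusted p = 0.0499).

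Female livers started from a higher level of the same probe. The controls held 76.8, 77.9, 139, 207 and 264 CPM and the females at 0.1 mg/kg 76.7, 121, 136, 140 and 265 CPM. At 0.5 mg/kg the 4 females held 454, 519, 644 and 695 CPM, and at 5 mg/kg the 5 females held 2096, 2424, 2601, 2731 and 2755 CPM. Control and 0.1 mg/kg values were intermingled, and every female at 0.5 or 5 mg/kg lay above all controls. These groups differed from controls by 1.92 ± 0.36 (adjusted p = 0.00333) and 4.04 ± 0.38 (adjusted p = 3.01e-11) on the log2 scale. With mouse 355 the change at 0.5 mg/kg was 1.60 ± 0.48 and no longer passed (adjusted p = 0.414).

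The other Cyp4a10 probe, Cyp4a10_31160, rose at the middle and high dose in both sexes. Males held 5.69 to 24.3 CPM as controls and then, with rising dose, 12.02 to 115, 516 to 905 and 1145 to 2030 CPM. Females held 44.7 to 111 CPM as controls and then 57.4 to 115, 176 to 484 and 1193 to 1627 CPM. The log2 fold changes at the middle and high dose were 5.54 ± 0.38 and 6.77 ± 0.40 for males, and 2.18 ± 0.34 and 4.45 ± 0.36 for females, and all 4 passed, with no overlap with controls among the 39 libraries. With mouse 355, which lay below every control, the female change at the middle dose was 1.86 ± 0.46 and no longer passed (adjusted p = 0.218). It was the only member probe to rise at the lowest dose in males, by 1.95 ± 0.33 on the log2 scale (adjusted p = 0.00631). That call rested on mouse 202, the highest of its group, without which the change was 1.45 and did not pass (adjusted p = 0.116). It was also lost with all 40 libraries and on counts of molecules (1.90, adjusted p = 0.451), so its side of the threshold is not settled. The ratio of the 2 probes within a mouse passed at no dose in either sex in an exact two-sided permutation test (smallest adjusted p = 0.286 over 9 ratio tests).

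Cyp4a14, a lauric acid omega-hydroxylase and the member least like the others in sequence, was near the limit of detection in male controls. Its single probe held 0, 2.89, 6.94, 6.99 and 30.7 CPM there, and 8.31, 18.8, 23.4, 25.4 and 50.02 CPM in males at 0.1 mg/kg. Males at 0.5 mg/kg held 458, 475, 480, 500 and 502 CPM and at 5 mg/kg 878, 930, 935, 977 and 1064 CPM. Both higher doses stood clear of the controls and of each other, with a spread among mice that was small beside the step between doses. Mean levels were 50.9 and 101 times that of the controls, and the log2 fold changes were 5.67 ± 0.71 (adjusted p = 2.21e-07) and 6.66 ± 0.74 (adjusted p = 1.94e-09). Both leaned on mouse 102, the highest control, without which they were 6.84 and 7.83. The difference of 1.41 ± 0.60 at 0.1 mg/kg did not pass (adjusted p = 0.35).

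In females, Cyp4a14 was very uneven between control mice, which held 2.70, 6.12, 18.7, 25.5 and 86.8 CPM. Females at 0.1 mg/kg were as uneven, at 6.46, 22.4, 48.3, 71.1 and 74.8 CPM. Values then reached 179, 240, 263 and 397 CPM at 0.5 mg/kg and 674, 948, 991, 1090 and 1100 CPM at 5 mg/kg. Both of these groups lay above every control. The log2 fold changes were 3.27 ± 0.64 (adjusted p = 0.00525) and 5.10 ± 0.68 (adjusted p = 4.22e-07), and with mouse 355 the former was 2.93 ± 0.84 (adjusted p = 0.414). Without mouse 153, the highest control, they were 4.34 and 6.17.

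**Figure D2:**
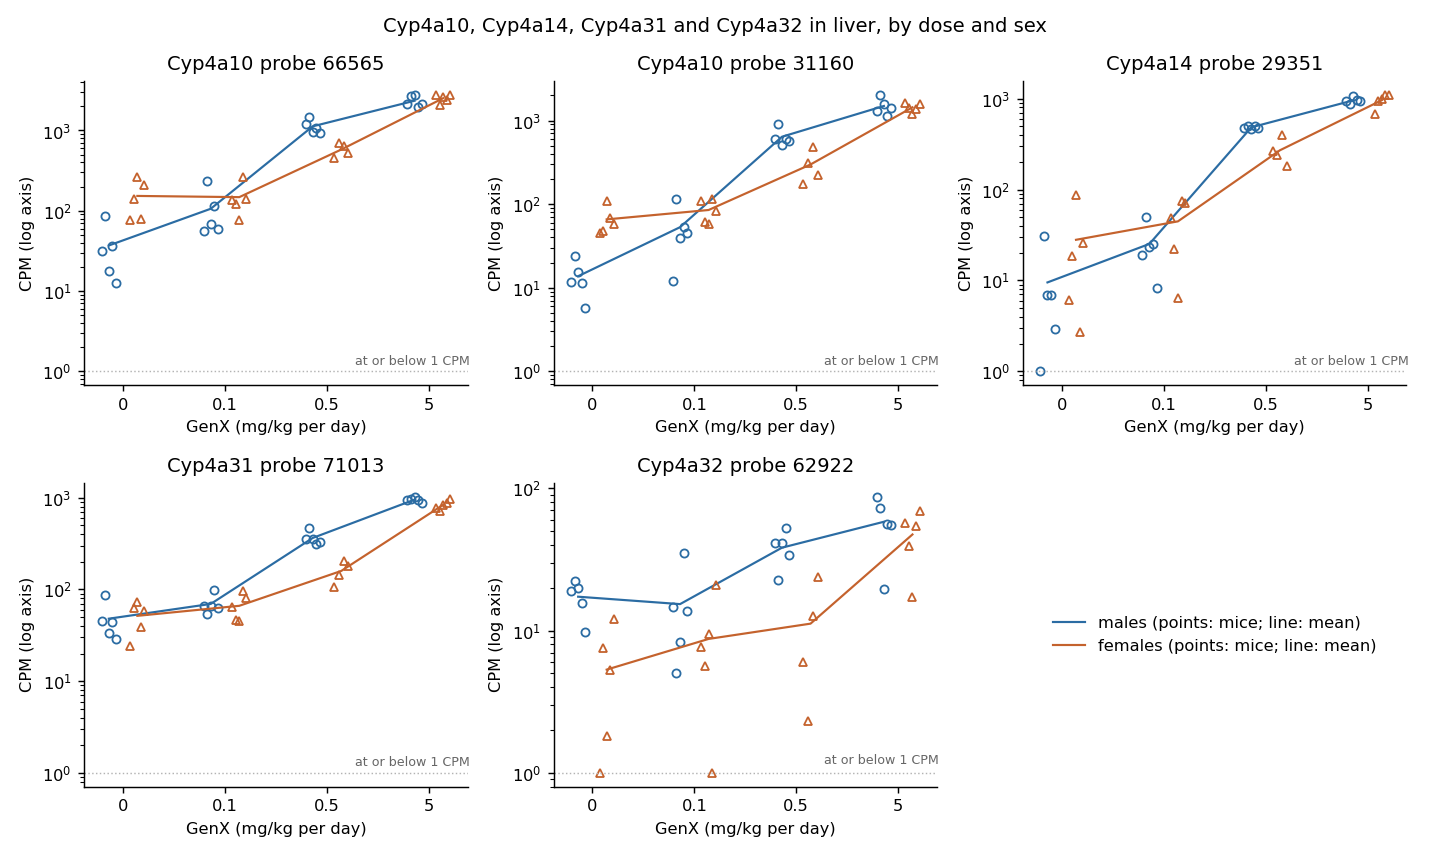
CPM (log axis) of 5 probes of Cyp4a10, Cyp4a14, Cyp4a31 and Cyp4a32 by GenX dose (x axis, mg/kg per day). Circles are single males, triangles single females, and lines join the group means; values at or below 1 CPM are drawn on the dotted line. On the Cyp4a10, Cyp4a14 and Cyp4a31 probes, the sexes overlap at 5 mg/kg while the mean of the males is the higher at 0.5 mg/kg.

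Cyp4a31, a near-copy of Cyp4a10, was measured by 3 probes of very unequal counts. On Cyp4a31_71013, male controls held 28.6, 33.6, 44.6, 45.4 and 87.7 CPM and males at 0.1 mg/kg 54.1, 62.0, 66.0, 66.8 and 98.6 CPM. Males at 0.5 mg/kg held 315, 325, 357, 358 and 463 CPM and at 5 mg/kg 873, 935, 950, 976 and 1028 CPM. Levels in males thus rose at each of the higher doses without overlap, by 2.92 ± 0.25 (adjusted p = 2.42e-12) and 4.31 ± 0.26 (adjusted p = 6.6e-18) on the log2 scale.

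Female controls held 24.2, 39.3, 57.6, 63.0 and 73.7 CPM on the same probe, and females at 0.1 mg/kg 45.5, 46.5, 63.6, 80.4 and 95.4 CPM. Values were 106, 145, 180 and 204 CPM at 0.5 mg/kg and 721, 764, 836, 883 and 972 CPM at 5 mg/kg. Again the groups at 0.5 and 5 mg/kg overlapped neither with controls nor with each other. The log2 fold changes were 1.62 ± 0.25 (adjusted p = 7.56e-05) and 4.02 ± 0.26 (adjusted p = 6.53e-17). With mouse 355 the former was 1.29 ± 0.51 (adjusted p = 0.414).

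The remaining Cyp4a31 probes, Cyp4a31_73149 and Cyp4a31_29350, held no read in any male control or male at 0.1 mg/kg. Males at the high dose held 6.06 to 41.2 CPM on the former and 9.37 to 20.1 CPM on the latter, and every mouse had reads on both. Against a floor of 3 molecules in each control library, the mean was at least 2.60-fold and at least 1.60-fold higher. Both rises passed the test (adjusted p = 0.00141 and 0.00509). At 0.5 mg/kg 3 of the 5 males had reads on each probe, and these calls (adjusted p = 0.048 and 0.0687) were lost without any of mice 102, 103, 104, 105 or 302, and for Cyp4a31_29350 also without 101 or 305 (adjusted p = 0.103 to 0.15). They were lost as well with all 40 libraries (adjusted p = 0.171 and 0.196). In females, Cyp4a31_73149 had reads in 2 of 5 controls (4.86 and 9.57 CPM) and 7.65 to 20.8 CPM at 5 mg/kg, which did not pass (adjusted p = 0.66). Cyp4a31_29350 had none in controls and reads in 4 of 5 females at 5 mg/kg, up to 9.32 CPM, and passed (adjusted p = 0.0254), although its mean of 5.30 CPM lay below the level of 3 molecules in the control libraries (7.61 CPM).

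Cyp4a32, the other near-copy of Cyp4a10, rose in females at the high dose and did not pass the test in males. Its probe held 9.76 to 22.2 CPM in male controls and, with rising dose, 5.05 to 34.9, 22.6 to 52.4 and 19.5 to 87.2 CPM. The log2 differences in males were -0.17 ± 0.66, 1.14 ± 0.66 and 1.75 ± 0.67, and none passed (adjusted p = 0.128 at 5 mg/kg). The change at 5 mg/kg passed without mouse 403, whose 19.5 CPM lay within the control range (1.97, adjusted p = 0.094). It passed as well on counts of molecules (1.73, adjusted p = 0.00167), without the filter on low counts and when only these groups were fitted. Females held 0 to 11.96 CPM as controls and, with rising dose, 0 to 20.99, 2.32 to 23.8 and 17.1 to 68.9 CPM. There the rise at the high dose was 3.14 ± 0.71 (adjusted p = 0.00396), with no overlap with controls. Its difference from the male change (1.40 ± 0.93) did not pass (adjusted p = 0.61).

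Cyp4a12a and Cyp4a12b gave a different picture in the 2 sexes. Cyp4a12a is the main enzyme that makes the eicosanoid 20-HETE in male mice. On probe Cyp4a12a_79220, male controls held 169, 197, 201, 217 and 268 CPM, and males at the low dose 157, 206, 266, 266 and 273 CPM. Males held 201, 253, 267, 325 and 357 CPM at the middle dose and 222, 306, 309, 320 and 404 CPM at the high dose. All treated male groups overlapped with controls. The log2 differences were 0.15 ± 0.35, 0.42 ± 0.35 and 0.57 ± 0.35, and none passed (adjusted p = 0.401 at 5 mg/kg). Fitted on the male control and 5 mg/kg groups alone, the last value was 0.58 ± 0.16 and passed (adjusted p = 0.0284).

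In female controls and in females at 0.1 mg/kg, the same probe was nearly without reads. The 5 controls held 1, 0, 0, 0 and 1 reads, or 2 reads in all, and the 5 females at 0.1 mg/kg held none. At 0.5 mg/kg the 4 females held 6.21, 9.63, 17.2 and 83.5 CPM, and at 5 mg/kg the 5 females held 64.8, 119, 153, 190 and 221 CPM. Every female at either dose lay above every control, and at 5 mg/kg the highest female was below the lowest male by a narrow margin (221 against 222 CPM). The ratio of summed reads to controls, scaled by library, was 864.5 at the middle dose (exact 95% interval 238.9 to 7145) and 4659 at the high dose (1289 to 38470). These intervals cover the counting error of reads only, and 2 reads are less than 1 of the multiples described above. Set against a floor of 3 molecules in each control library, the means were 3.83 and 19.7 times that floor. The middle dose leaned on mouse 353, the highest of its group, without which the ratio was 332.2 (91.41 to 2752) and the mean was 1.45 times the floor. Both rises passed the test (adjusted p = 2.08e-13 and 7.16e-18), the former also with mouse 355 (adjusted p = 1.78e-07).

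The remaining Cyp4a12a probe, Cyp4a12a_29072, had few reads, at most 15.2 CPM in any male and 3.51 CPM in any female. No female control and no female at 0.1 mg/kg had a read on it, while 1 of 4 had at 0.5 mg/kg and 3 of 5 had at 5 mg/kg. The call at 5 mg/kg in females (adjusted p = 0.0411) was lost when only these groups were fitted (adjusted p = 0.315) and with all 40 libraries (adjusted p = 0.102), and the mean of 1.68 CPM lay below the floor of 3 molecules.

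Cyp4a12b encodes a near-copy of the Cyp4a12a enzyme. Male controls held 12.4, 25.3, 32.6, 43.5 and 60.7 CPM, and males at the low dose 23.3, 27.4, 58.3, 60.0 and 70.8 CPM. Males held 67.9, 74.9, 103, 105 and 119 CPM at the middle dose and 79.5, 91.4, 105, 133 and 138 CPM at the high dose. All mice of the 2 higher doses lay above all male controls. The log2 differences were 1.43 ± 0.55 (adjusted p = 0.24) and 1.65 ± 0.55 (adjusted p = 0.064), so that only the latter passed. The former passed without the filter on low counts (adjusted p = 0.0172) and on counts of molecules (adjusted p = 0.0131). The rise at the high dose failed without mouse 101, 102, 103, 401, 402 or 403, with values of 1.43 to 1.65 (adjusted p = 0.102 to 0.174), under DESeq2 (adjusted p = 0.198) and with all 40 libraries (adjusted p = 0.203). Within a male liver, the log2 ratio of Cyp4a12b to Cyp4a12a was -2.76 ± 0.94 in controls, -1.58 ± 0.25 at the middle dose and -1.52 ± 0.23 at the high dose (SD, n = 5 each). In an exact two-sided permutation test these differences did not pass (p = 0.0397, adjusted p = 0.179 for both).

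Female controls held no read on Cyp4a12b, and among females at 0.1 mg/kg a single mouse held 1 read. Females at 0.5 mg/kg held 0, 2.46, 8.04 and 23.7 CPM, and females at 5 mg/kg held 5.27, 13.4, 27.3, 31.9 and 46.1 CPM. Against a floor of 3 molecules in each control library, the mean was at least 3.26-fold higher at the high dose. At the middle dose the mean of 8.55 CPM was near that floor of 7.61 CPM. Mouse 353, which led Cyp4a12a at 0.5 mg/kg, also led Cyp4a12b, and without it the mean was 3.50 CPM, below the floor. Both rises passed (adjusted p = 8.13e-07 and 4.36e-10), the former also with mouse 355 (adjusted p = 0.000296).

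**Figure D3:**
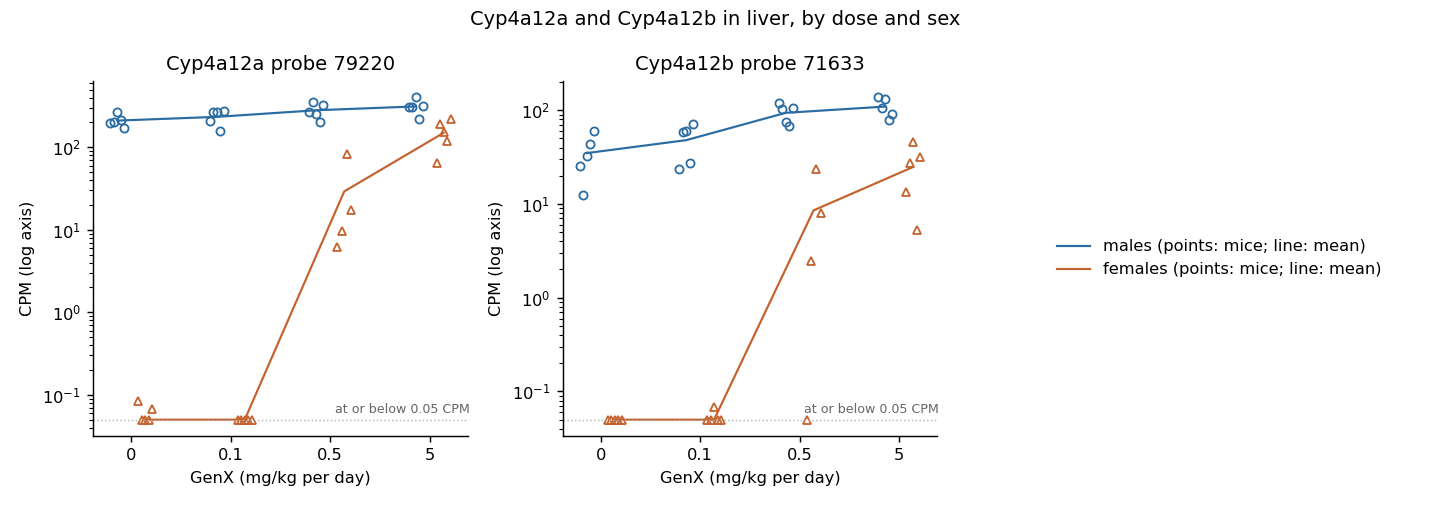
CPM (log axis) of Cyp4a12a (left) and Cyp4a12b (right) by GenX dose (x axis, mg/kg per day). Circles are males, triangles females and lines group means; values at or below 0.05 CPM are drawn on the dotted line. Treated males overlapped with control males on Cyp4a12a, whereas females went from 2 reads over all controls to 64.8 to 221 CPM at 5 mg/kg.

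The level in untreated livers differed between the sexes for 6 of the 10 probes, where 3.49% of all probes did. The 3 that were higher in females were Cyp4a10_66565 by 2.05 ± 0.35 (adjusted p = 0.000109) and Cyp4a10_31160 by 2.26 ± 0.33 (adjusted p = 5.55e-06) on the log2 scale, and Cyp4a31_73149 (adjusted p = 0.0366), which had reads in 2 of 5 females and in no male. This last call was lost with all 40 libraries (adjusted p = 0.107) and when only the control groups were fitted (adjusted p = 0.289). Both Cyp4a12a probes and Cyp4a12b were lower in females, with adjusted p of 8.77e-18, 0.0198 and 3.03e-10, of which that of Cyp4a12a_29072 was lost when only the control groups were fitted (adjusted p = 0.12). For Cyp4a14 the log2 difference of 1.56 ± 0.61 did not pass (adjusted p = 0.216), but passed without mouse 102 or 154 (1.85 to 2.73, adjusted p = 0.00781 to 0.0995). At 5 mg/kg, 1 of the 10 probes differed between the sexes, against 1.86% of all probes. This was Cyp4a12b, lower in females by a log2 difference of -2.14 ± 0.56 (adjusted p = 0.0338), which failed without mouse 451 or 454 (adjusted p = 0.117 to 0.124) and with all 40 libraries (adjusted p = 0.291). Cyp4a12a_79220 was also lower in females there, by -1.06 ± 0.36 and without overlap, and did not pass (adjusted p = 0.179). It passed without the filter on low counts (adjusted p = 0.00278), on counts of molecules (adjusted p = 0.0222) and when only these groups were fitted (adjusted p = 0.022). The difference at 5 mg/kg was 0.10 ± 0.34 for Cyp4a10_66565, 0.01 ± 0.57 for Cyp4a14 and -0.19 ± 0.23 for Cyp4a31_71013.

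The question of whether the response differed between the sexes was addressed by the female change minus the male change. At 0.1 mg/kg no member and no probe of the assay passed edgeR's adjusted threshold (0%), with 1504 at an unadjusted p below 0.05. Without the filter on low counts, both Cyp4a10 probes passed there. At 0.5 and 5 mg/kg, 4 of the 10 probes passed at each dose, the same 4 probes each time, against 0.274% and 1.04% of all probes. Both Cyp4a10 probes had the smaller log2 change in females, with differences of -3.01 ± 0.51 (adjusted p = 0.00158) and -3.36 ± 0.48 (adjusted p = 5.78e-05) at the middle dose. At the high dose the differences were -1.95 ± 0.48 (adjusted p = 0.0396) and -2.31 ± 0.45 (adjusted p = 0.00355). There the female levels were not lower: they differed from the male levels by 0.10 ± 0.34 and -0.05 ± 0.31, and the female controls were higher by 2.05 and 2.26. In mean CPM, Cyp4a10_66565 went from 36.9 to 2346 in males and from 153 to 2522 in females at that dose. The value of -1.95 became -1.66 without mouse 153 and failed (adjusted p = 0.122). With mouse 355 both calls at 5 mg/kg were lost (adjusted p = 0.223 and 0.202), whereas those at 0.5 mg/kg still passed (adjusted p = 0.0461 and 0.011). The log2 change of Cyp4a12a_79220 and Cyp4a12b was the larger in females at both doses. The adjusted p was 3.31e-10 and 0.00284 at the middle dose, and 4.84e-14 and 2.23e-05 at the high dose. Their female controls held 2 reads or none, so these differences are no measure of size. In mean CPM, Cyp4a12b went from 34.9 to 93.8 and 109 in males and from 0 to 8.55 and 24.8 in females. Cyp4a12a_79220 went from 210 to 281 and 312, and from 0.0303 to 29.2 and 150. With mouse 355 the log2 differences of both probes at 0.5 mg/kg passed as well (adjusted p = 4.39e-05 and 0.0461). On counts of molecules the Cyp4a12b difference at 0.5 mg/kg failed (adjusted p = 0.272).

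For Cyp4a14 and Cyp4a31_71013, the female change was also the smaller at 0.5 mg/kg, by -2.40 ± 0.87 (adjusted p = 0.217) and -1.30 ± 0.34 (adjusted p = 0.114), without passing in the test on 39 libraries. Both passed without the filter on low counts (adjusted p = 0.000683 and 0.00132). Cyp4a31_71013 also passed under DESeq2 (-1.23, adjusted p = 0.0705) and on counts of molecules (-1.23, adjusted p = 0.0555). Cyp4a14 passed without mouse 102 (-3.57, adjusted p = 0.0634), and Cyp4a31_71013 passed without mouse 102, 151, 154 or 353, with values of -1.63 to -1.38.

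**Figure D4:**
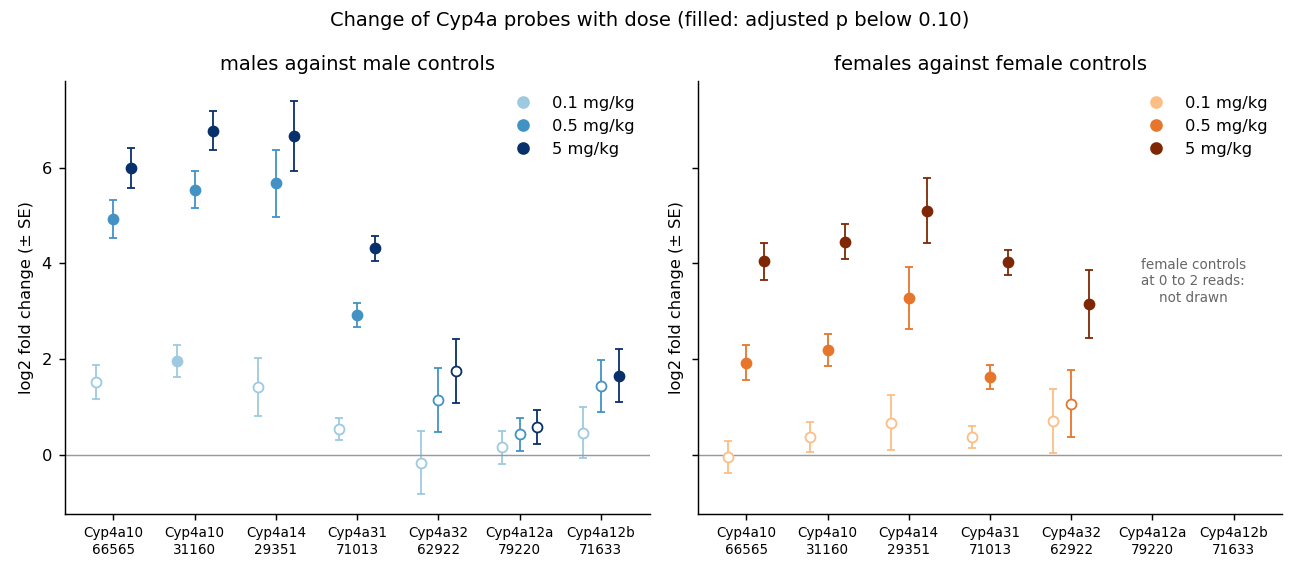
Log2 fold change (y axis) of 7 Cyp4a probes against controls of the same sex in males (left) and females (right) at 3 doses; error bars are SE and filled points passed an adjusted p of 0.10. Cyp4a12a and Cyp4a12b are not drawn for females, whose controls held 0 to 2 reads. The male points of Cyp4a10 and Cyp4a14 already stand near 5 at 0.5 mg/kg, where the female points stand near 2 to 3.

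Neighbouring doses were compared next. From 0.1 to 0.5 mg/kg, 4 of the 10 probes rose in males (0.408% of all probes) and 6 in females (0.14%). From 0.5 to 5 mg/kg, 2 rose in males (0.973%) and 4 in females (0.571%). In males the step to 0.5 mg/kg was 3.41 ± 0.37 on the log2 scale for Cyp4a10_66565 and the step from there to 5 mg/kg was 1.06 ± 0.34 (adjusted p = 0.115). In females the same steps were 1.97 ± 0.36 and 2.13 ± 0.38, both of which passed. With mouse 355 the first female step no longer passed for Cyp4a10_66565 (1.66, adjusted p = 0.356), Cyp4a10_31160 (adjusted p = 0.39), Cyp4a14 (2.27, adjusted p = 0.39) or Cyp4a31_71013 (0.94, adjusted p = 0.515). The second male step passed for Cyp4a10_31160 (1.22 ± 0.32, adjusted p = 0.023) and Cyp4a31_71013 (1.39 ± 0.23, adjusted p = 7.18e-05), the former not without mouse 402 (1.09, adjusted p = 0.105). With all 40 libraries neither passed. The second male step of Cyp4a14 was 0.99 ± 0.58 and did not pass (adjusted p = 0.486). On Cyp4a14 and on Cyp4a10_66565, however, males at 0.5 and 5 mg/kg did not overlap. Both of these steps passed on counts of molecules (adjusted p = 0.024 and 0.00649), without the filter on low counts and when only these groups were fitted. The female step of Cyp4a14 to 0.5 mg/kg (2.60 ± 0.63, adjusted p = 0.0839) failed without any of 7 mice (251, 252, 253, 255, 351, 352 and 353; adjusted p = 0.114 to 0.336). The later female step of Cyp4a12b (1.54 ± 0.60, adjusted p = 0.355) passed without mouse 353 (2.84, adjusted p = 0.0123).

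The genes that carry the product of omega-hydroxylation further rose in part. Of 4 tested genes (Adh7 was listed but too low to test) for oxidation of the omega-alcohol and the aldehyde, Adh1 and Aldh3a2 rose and Adh4 fell at 5 mg/kg in both sexes, and Adh5 fell in males. Here 4.83% and 3.45% of all probes rose and fell in males, and 1.83% each way in females. Aldh3a2, the fatty aldehyde dehydrogenase, went from 207 ± 26 to 769 ± 132 and 2107 ± 256 CPM in males at 0, 0.5 and 5 mg/kg (SD, n = 5), and from 373 ± 87 to 1287 ± 161 CPM in females at 5 mg/kg. Its changes at 5 mg/kg were 3.35 ± 0.18 and 1.79 ± 0.17 on the log2 scale, and the female change was the smaller (-1.56 ± 0.24, adjusted p = 4.8e-05). Adh4, an alcohol dehydrogenase, went from 421 ± 104 to 210 ± 16 CPM in males and from 293 ± 123 to 163 ± 28 CPM in females. Of 4 genes for activation and import, Acsl1 and Abcd3 rose in both sexes, Acsl1 by 1.29 ± 0.11 and 1.34 ± 0.11. Abcd2, with no read in male controls, passed as higher in males at the high dose. Its 3.54 CPM there lay below the level of 3 molecules in the male control libraries (9.42 CPM).

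Of 5 genes for peroxisomal chain shortening, 4 rose in high-dose males and 5 in high-dose females. At the middle dose 3 rose in males and 2 in females, where 1.74% and 0.185% of all probes rose and 0.638% and 0.028% fell. Ehhadh, the bifunctional enzyme, rose the most on this list, by 5.69 ± 0.20 in high-dose males and 4.96 ± 0.19 in high-dose females. Acaa1a, a peroxisomal thiolase, rose by 2.47 ± 0.24 and 2.60 ± 0.24. Of 5 genes for release of the products, Acot3 and Crot rose in both sexes at 5 mg/kg and Crat in males. Of 4 genes for electron supply, Por, the reductase that passes electrons to P450 enzymes, rose in males (1.05 ± 0.38, adjusted p = 0.0963), and Cyb5b in females (0.52 ± 0.13). Among 8 genes of the receptor and its partners, only Rxra passed, with a log2 change of -0.35 in high-dose males (adjusted p = 0.0821), from 671 ± 126 CPM in male controls to 528 ± 67 CPM (SD, n = 5). Ppara itself held 155 CPM in male controls and 112 CPM in males at 5 mg/kg, a log2 difference of -0.48 that did not pass (adjusted p = 0.353).

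Genes with a sex bias in liver were examined beside the Cyp4a12 pair. Of 6 listed male-biased genes, 5 (all but Slco1a1) were higher in male than in female controls, and none of the 6 rose in females at 0.5 or 5 mg/kg. Of all probes, 3.49% differed between the control sexes. At 5 mg/kg, 4.83% rose and 3.45% fell in males, and 1.83% went each way in females. Elovl3, an elongase of long fatty acids, held 34.6 CPM in female controls and 28.1 CPM in females at 5 mg/kg, and the cytochrome Cyp2d9 4.84 and 4.87 CPM. In males at 5 mg/kg, 4 of the 6 fell (Cyp7b1, Hsd3b5, Elovl3 and Slco1a1), Elovl3 by 3.32 and Cyp7b1, an oxysterol hydroxylase, by 2.91 on the log2 scale. Of 5 female-biased genes, all higher in female than in male controls, Cyp3a41a and Sult3a1 fell in females at 5 mg/kg and Cyp2b9, Cyp2b13 and Cyp2a4 rose in males. Cyp3a41a, a cytochrome of the Cyp3a family, was at 3256 CPM in female controls and at 357 CPM at 5 mg/kg. Of 10 genes of growth hormone and androgen signalling, Igf1 fell in males (-1.34 ± 0.23) and Ghr, the growth hormone receptor, in females (-0.89 ± 0.24), both at the high dose.

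**Figure D5:**
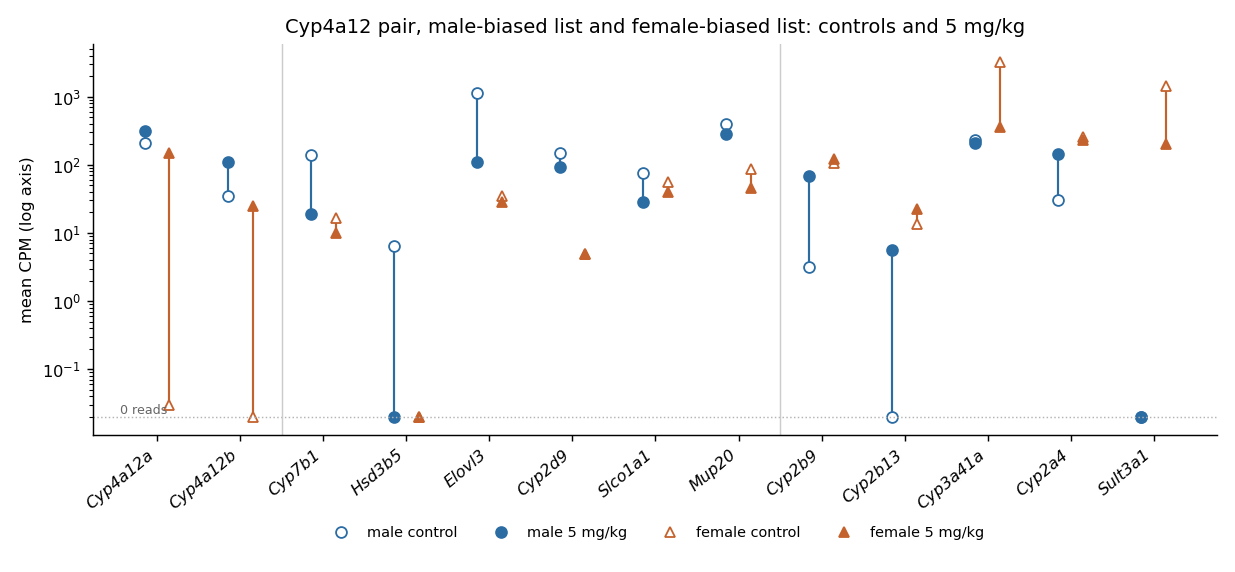
Mean CPM (log axis) of the Cyp4a12 pair (left), the male-biased list (middle) and the female-biased list (right); open symbols are controls, filled symbols 5 mg/kg, circles males and triangles females, and values of 0 are drawn on the dotted line at 0.02 CPM. The female lines of Cyp4a12a and Cyp4a12b run from 0 or near 0 up to 150 and 24.8 CPM, while no male-biased gene rose in females and Cyp3a41a and Sult3a1 fell.

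Some cell type markers moved with the highest dose. The summed hepatocyte markers had medians of 35070 and 21320 CPM in male controls and males at 5 mg/kg, and of 29310 and 19120 CPM in females. Of these, Apoa1, Serpina1a and Hnf4a, 3 of the 6, fell in both sexes, where 3.45% of all probes fell in males and 1.83% in females. Stellate cell markers summed to 104 to 171 CPM in male controls and to 196 to 246 CPM in males at 5 mg/kg. There Col1a1 and Col3a1, 2 of the 6, rose, where 4.83% of all probes did. In females the stellate cell markers summed to 140 to 210 CPM in controls and 123 to 190 CPM at 5 mg/kg. Summed Kupffer cell, endothelial, cholangiocyte and lymphocyte markers overlapped between control and high-dose mice in both sexes, and of these lists only the endothelial gene Clec4g passed the test, falling in males. Endothelial markers summed to 134 to 164 CPM in male controls and to 74.1 to 149 CPM in high-dose males. Their part in the Cyp4a results was not tested. In sections of whole liver, a change in the number of cells of a type and in the RNA of each cell cannot be told apart.

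Neighbouring genes of the cluster were few in the assay. Within 500 kb of the outermost members, 45 genes are annotated beside the 6, 24 of them had a probe and 11 were tested. None passed at 5 mg/kg in males and 1 did in females, Uqcrh, a subunit of respiratory complex III, by 0.45 ± 0.14 (adjusted p = 0.0945). Of all probes, 4.83% rose and 3.45% fell in males at that dose, and 1.83% went each way in females. A list of 11 genes is too short to set its counts against these shares. The median log2 fold change of these neighbours was -0.08 in males and 0.26 in females.

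The probes whose pattern was nearest to that of Cyp4a10_66565 were ranked by the root-mean-square difference of their 6 log2 fold changes over 3 doses and 2 sexes. The nearest were 2 probes of Cd36, a fatty acid transporter (0.68 and 0.80), followed by Dab1 (0.80), Acot2 (0.87) and Ehhadh (0.87). Nearest to Cyp4a14 were probes of Crat, carnitine acetyltransferase (0.73), Dab1 (0.97), Ackr2 (1.06), Acot2 (1.17) and Gbp4 (1.27). Of these 5 probes, only that of Acot2 passed the test at any dose. The Crat and Ackr2 probes held no read in controls and at most 0.745 and 0.958 CPM in any group, Gbp4 at most 1.82 CPM and Dab1 0.437 and 0.442 CPM in controls, so their distances rest on fitted folds over groups at or near 0. For Cyp4a12a no ranking is given, because its female controls held 2 reads and the 5 nearest probes held none there. The 6 comparisons share their control mice within a sex, so these distances are a description.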

How the data were processed

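The authors deposited raw counts, that is, reads aligned to each of 30146 probes for 40 livers, without normalization. According to the submitters' processing notes, bcl2fastq 2.17.1.14 and Bowtie were used, with mm10 as the genome build. The library of mouse 355 was left out by a depth limit of 2 SD below the mean, as in the study. The counts were scaled by TMM and tested in R 4.3.3 with edgeR 4.0.16 (quasi-likelihood F-test, default filter on low counts by group, a coefficient for each of 8 groups, 39 libraries). All tests were two-sided, and p values underwent Benjamini-Hochberg adjustment over 17877 probes with a threshold of 10%. CPM are TMM-scaled and depend on each probe's efficiency, so levels were not compared between genes. Gene positions, transcripts and coding sequences came from the GENCODE annotation of GRCm38, the assembly that mm10 names. Probe sequences were not used here. A library's molecules were estimated by dividing reads by the first peak of its count distribution, on the assumption, stated in no source used here, that this peak is 1 molecule.

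The members, the lists of pathway genes, sex-biased genes and cell markers, and the tests were chosen with earlier results of these data known. Of these lists, 2 genes are not reported here. All member probes were named. List genes were named in list order, those called at 5 mg/kg in either sex first. The alternatives were DESeq2 1.42.0, edgeR with DESeq2 size factors, omission of the low-count filter, inclusion of mouse 355, a fit of the compared groups alone, probe counts added up per gene, counts in molecules, and leaving out each mouse. Ratios of paired probes were added after the data were seen. Both tools were tested on simulated data. Intervals and floors (3 counts, 95%) cover counting error only. Each library is a separate mouse. In the main fit the spread of a probe was estimated over all 8 groups together. A p value of that fit therefore depends also on mice outside the groups compared. With mouse 355, a female, the change of Cyp4a10_31160 in males at 0.1 mg/kg stayed at 1.95, while its SE went from 0.33 to 0.47.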

Additional observations from a re-analysis of the deposited data

Results flagged for a closer look

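Of 70 sets of member values (a probe in a group), 11 held a mouse set apart from the rest of its group by Dixon's test at 95%. In 3 of these sets a single mouse held reads, which sets it apart by construction. Of the other 67 sets, 8 held such a mouse, where chance gives about 1 in 20 for independent sets of normal values. CPM need not be normal and the sets share mice, so these rates are not comparable. Mouse 302 was high among males at 0.5 mg/kg on Cyp4a10_31160 (904.7 CPM) and on Cyp4a31_73149 (11.11 CPM). Among male controls, mouse 102 was high on Cyp4a14_29351 (30.67 CPM) and Cyp4a31_71013 (87.66 CPM), and mouse 104 on Cyp4a12a_29072 (12.7 CPM). Mouse 204, a male at 0.1 mg/kg, held 98.57 CPM on Cyp4a31_71013. Among female controls, mouse 153 held 86.83 CPM on Cyp4a14_29351. Mouse 353 was high among females at 0.5 mg/kg on Cyp4a12a_79220 (83.54 CPM), and mouse 351 was the only one of that group with reads on Cyp4a12a_29072 (3.503 CPM). Females at 0.1 mg/kg held reads of Cyp4a31_73149 in mouse 251 only (1.855 CPM) and of Cyp4a12b_71633 in mouse 253 only (0.06876 CPM).

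The response differed between the sexes, by edgeR's quasi-likelihood test of the female change minus the male change, in 4 probes at each of the higher doses. For Cyp4a10_66565 the log2 difference was -3.01 at 0.5 mg/kg and -1.95 at 5 mg/kg, and for Cyp4a10_31160 it was -3.36 and -2.31. For Cyp4a12a_79220 it was 9.05 and 11.26, and for Cyp4a12b_71633 it was 8.39 and 9.71. The last 4 values rest on female controls with 2 reads or none, so they depend on the prior count of the fit and are no measure of size.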

How the results depend on the processing

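Where female controls hold no reads, and at counts of few molecules, depth limits both the size and the direction of a change. No paired analysis was possible because each mouse has its own number and no number is shared between groups. The scaling with DESeq2 size factors changed none of the counts of member probes called. With mouse 355 among all 40 libraries, the number of member probes called became 2 in females at 0.5 mg/kg (from 6), 0 in males at 0.1 mg/kg (from 1), 2 for the sex difference of the change at 5 mg/kg (from 4), 0 between the sexes at 5 mg/kg (from 1), and 0 and 2 for the steps of males from 0.5 to 5 mg/kg (from 2) and of females from 0.1 to 0.5 mg/kg (from 6). In males at 0.1 mg/kg it was 2 by DESeq2, 3 without the filter, 0 in molecules and 0 with only the groups compared. Without the filter it was 2 and 7 for the sex difference of the change at 0.1 and 0.5 mg/kg (from 0 and 4), 2 between the sexes at 5 mg/kg, and 4 and 7 for the steps to 5 mg/kg in males and females (from 2 and 4). In molecules, and with only the groups compared, it was 2 and 2 between the sexes at 5 mg/kg, and 4 and 5 for the male step to 5 mg/kg. Of the gene lists, electron supply in males at 0.5 mg/kg went from 0 called to 1 by DESeq2 and 1 with its size factors. By DESeq2, in females at 0.5 mg/kg, omega-alcohol oxidation went from 0 to 1, acyl-CoA activation from 1 to 2 and peroxisomal shortening from 2 to 4. In females at 5 mg/kg, release from the peroxisome went from 2 to 1, the female-biased genes from 2 to 1 and growth hormone and androgen signalling from 1 to 2, and the latter in males at 0.5 mg/kg from 0 to 2. Except for the fits with fewer samples, the cause was not tested.

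Leaving out each mouse in turn gave 0 to 2 called member probes in males at 0.1 mg/kg, 0 to 1 between the sexes at 5 mg/kg and 1 to 2 for the male step to 5 mg/kg. The differences that changed sign passed the test neither before nor after. By DESeq2, with its size factors and in molecules, Cyp4a10_31160 between the sexes at 5 mg/kg was 0.01, 0.01 and 0.01, and -0.14 to 0.09 without single mice. For the sex difference of the change at 0.1 mg/kg, Cyp4a12b_71633 was -0.04 by DESeq2, -0.44 in molecules and -0.46 to 1.08 without single mice, and Cyp4a14_29351 was -1.91 to 0.33. Without single mice, that at 0.5 mg/kg was -0.61 to 6.35 for Cyp4a12a_29072 and -0.76 to 0.46 for Cyp4a32_62922. Cyp4a32_62922 in males at 0.1 mg/kg was 0.01 in molecules and -0.73 to 0.05 without single mice, and its female step to 0.5 mg/kg was -0.32 to 0.98. The same ranges were -0.37 to 0.24 for Cyp4a10_66565 in females at 0.1 mg/kg, -1.80 to 0.48 for Cyp4a31_73149 in females at 0.5 mg/kg, -0.06 to 0.44 for Cyp4a31_71013 between controls and -0.05 to 0.11 for Cyp4a14_29351 between the sexes at 5 mg/kg. For Cyp4a12a_29072 they were -0.51 to 0.25 and -0.38 to 0.13 for the male steps to 0.5 and 5 mg/kg.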
